A study of Mus musculus with 3 samples.

Results

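Primary mouse pre-osteoclasts that carried an Ift88 short hairpin RNA (shRNA) were compared with pre-osteoclasts that carried a control shRNA, both after orbital shear stress. The comparison used 2 of the 3 libraries of the series, and 10358 of the 24067 genes in the deposited table, those with a mean level of at least 1 FPKM over the 3 libraries. FPKM counts sequenced fragments for a gene, divided by transcript length and by the number of fragments mapped in that library. The cells came from bone. The controls have the genotype label WT, and the other group is labelled as Ift88 knockdown. The hairpin came before the cytokines. All groups were kept in MCSF and RANKL for 2 days, the cytokine pair that drives monocyte precursors towards osteoclasts. Both groups compared here were then sheared for 24 h, which for orbital shear means fluid flow made by swirling the dish. RNA was extracted with TRIzol, and polyadenylated RNA was sequenced after preparation with the TruSeq mRNA kit. Each group was 1 library, so no difference below has a replicate check and no p-value is given. The static library with control shRNA is printed beside the sheared pair. A static library with Ift88 shRNA was not analysed here, so a difference tied to the hairpin in general and a difference tied to shear cannot be told apart. The hairpin's sequence was not used here, and control and Ift88 hairpin cells differ in the hairpin as well as in Ift88.

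Ift88 is a core subunit of intraflagellar transport complex B, which carries cargo along the microtubules of the primary cilium and is needed to build it. The primary cilium is an antenna-like organelle that serves Hedgehog signalling and has been studied as a flow sensor in bone cells. Pre-osteoclasts are mononuclear cells of the monocyte lineage that express tartrate-resistant acid phosphatase. They later fuse, seal onto bone, and resorb it with acid and with proteases such as cathepsin K.

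The 3 libraries had similar depth, estimated at between 34752000 and 35146000 fragments from the spacing of low FPKM values, and between 10304 and 10358 genes reached 1 FPKM in each. The markers of macrophages were high in all 3 (11 of 11 measured, summed level 31935 to 33607 FPKM). The osteoclast markers were present at a summed 330 to 436 FPKM, with Calcr, Oscar and Ocstamp, genes of more mature osteoclasts, below the level filter. All 6 lymphoid markers were under 1 FPKM in every library, with Cd3e, Ms4a1 and Cd8a among those at 0, and so were all 10 erythroid, mast cell and megakaryocyte markers, with Hbb-bs, Hba-a1 and Cpa3 among those at 0.

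The targeted gene was lower in the library labelled Ift88 shRNA. Ift88, at 57424064 to 57517936 on chromosome 14 in GRCm38 (gene ID 21821), had a level of 2.98 FPKM in static control cells, 2.71 in the sheared control and 1.197 with Ift88 shRNA. The FPKM ratio of Ift88 shRNA to sheared control was 0.442, with a 95% counting interval of 0.354 to 0.549. Such intervals are Clopper-Pearson limits from estimated fragments and cover counting error only, not differences between cultures. Of the 10130 genes with an interval, 3230 (31.9%) had one that excluded 1, so such an interval was common in this pair of libraries. The ratio corresponds to -0.76 on the scale used for all counts below, log2 of (FPKM + 1) in the Ift88 shRNA library over (FPKM + 1) in the sheared control, which understates differences of genes at low levels. Only 13 genes had a lower value of this ratio. The neighbours of Ift88 were closer between the sheared libraries. Cryl1, upstream of it, was at 22.9 FPKM in the sheared control and 21.9 with Ift88 shRNA, and N6amt2, downstream, was at 22.5 and 20.7. Xpo4, the next gene, was at 2.40 FPKM in static cells, 1.799 in the sheared control and 2.54 with Ift88 shRNA. Cryl1, N6amt2 and Xpo4 were picked for their position.

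Differences from the sheared control were small for most genes. The median log2 ratio over all 10358 genes was 0.0101, the quartiles were -0.063 and 0.084, and 94.5% of genes lay within 1.2-fold. Above 0 lay 53.6% of the genes and below 0 lay 46.4%. With FPKM rescaled to equal library totals, 64.2% were above 0. At least 1.2-fold higher with Ift88 shRNA were 337 genes (3.25%) and at least 1.2-fold lower were 237 (2.29%), together 5.54%. At 1.5-fold the counts were 29 higher (0.28%) and 21 lower (0.203%), together 0.483%. At 2-fold they were 8 higher (0.0772%) and 7 lower (0.0676%), together 0.145%. Of the 15 genes past 2-fold, 9 encode small RNAs with a transcript of at most 500 bases, for which a few fragments give a large FPKM. The remaining genes were Fxyd2, Gm4070, Mt3, Mmp9 and Cxcl2 on the higher side and Eif3j2 on the lower side. Low genes were past 1.2-fold more often, with 10.0% in the bin of lowest mean FPKM, of 5 equal bins, and 3.09% in the highest. Longer transcripts lay slightly higher, with a median log2 ratio of -0.019 in the shortest of 5 bins and 0.039 in the longest. Across genes the Spearman correlation of the ratio with transcript length was 0.16 over 10268 genes, which share the same 2 libraries.

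**Figure D1:**
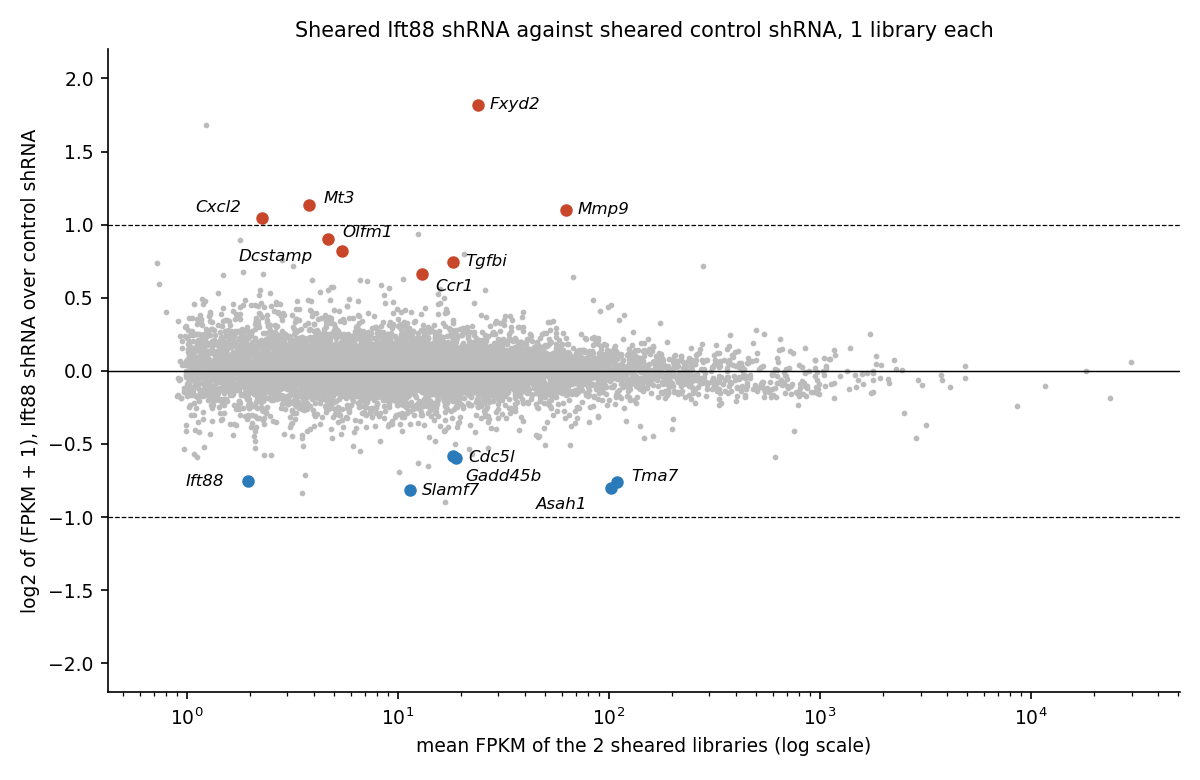
Each grey point is a gene, with the mean FPKM of the 2 sheared libraries on a log axis and the log2 ratio of (FPKM + 1), Ift88 shRNA over control shRNA, on the vertical axis. Dashed lines mark 2-fold, red points are named genes that were higher and blue points named genes that were lower, and 10 genes beyond 2.2 (Eif3j2 and 9 small RNAs) lie outside the axis. Fxyd2 and Mmp9 stand above the cloud of genes at their level, and Slamf7, Asah1 and Tma7 below it.

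The gene with the highest ratio on the (FPKM + 1) scale among transcripts over 500 bases was Fxyd2, a small membrane protein that regulates the sodium/potassium ATPase. Fxyd2 (chromosome 9, 45399709 to 45410278) was at 10.7 FPKM in static cells, 9.98 in the sheared control and 37.8 with Ift88 shRNA. The ratio to the sheared control was 3.78 (3.18 to 4.56), and the static and sheared control libraries were close to each other. Fxyd5, another family member that is also linked to cell adhesion, was at 482, 495 and 591 FPKM. Of 13 listed pump and FXYD genes 5 were measured, 4 of them higher and 1 of them past 1.2-fold, with Fxyd3 and Fxyd4 at 0 in every library.

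Among other genes that were higher with Ift88 shRNA, the static library stood at different places. Static and Ift88 shRNA cells are both set against the same sheared control library, so the 2 differences share it. Mmp9 (chromosome 2, 164940326 to 164955850), the matrix protease of osteoclasts and macrophages also called gelatinase B, was at 70.3 FPKM in static cells, 39.3 in the sheared control and 85.5 with Ift88 shRNA, a ratio of 2.18 (2.10 to 2.26). For Mmp9 the sheared control was the lowest of the 3 libraries. A different order was seen for Tgfbi, a secreted matrix protein that binds integrins, at 11.7, 13.3 and 23.04 FPKM (ratio 1.73, 1.61 to 1.86), where only the Ift88 shRNA library stood apart. Olfm1, a secreted olfactomedin-domain protein, was at 2.64, 2.94 and 6.37 FPKM (ratio 2.17, 1.69 to 2.82). Ndrg4 was at 0.750, 1.197 and 2.52 FPKM (ratio 2.10, 1.66 to 2.67). Cpe, the prohormone-processing carboxypeptidase E, was at 2.89, 2.16 and 4.19 FPKM, again with the sheared control lowest.

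Several genes in the same ranks are uncertain. Gm4070 was at 2.96 FPKM in static cells, 0.0604 in the sheared control and 2.40 with Ift88 shRNA, while Gvin1, a near-identical interferon-inducible GTPase gene, was at 2.93, 4.76 and 2.52. Their sums were 5.89, 4.82 and 4.92 FPKM, so the pair together differed little between the sheared libraries. Likewise Eif3j1 was at 18.8, 8.26 and 16.7 FPKM and its copy Eif3j2 at 2.28, 11.1 and 0.516, with sums of 21.1, 19.3 and 17.2. In both pairs the single genes differed more than the sum. H2-Q6, at 0.0406, 1.86 and 3.83 FPKM, belongs to a family of near-identical class I histocompatibility genes. Sbsn, at 1.33, 0.943 and 2.62 FPKM, overlaps Gapdhs.

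On the lower side the named genes included a surface receptor, a lipid hydrolase and genes of translation. Slamf7 (chromosome 1, 171632403 to 171653037), an immune receptor of the SLAM family that binds itself on neighbouring cells, was at 15.8 FPKM in static cells, 14.8 in the sheared control and 7.97 with Ift88 shRNA, a ratio of 0.538 (0.498 to 0.580). Asah1, the lysosomal acid ceramidase, was at 126, 130 and 74.1 FPKM (ratio 0.570, 0.553 to 0.587). Both had similar levels in static and sheared control cells and a lower one with Ift88 shRNA. Asah1 overlaps Frg1, which was at 31.6, 30.9 and 30.9 FPKM and was looked up after these values were seen. Tma7, a translation machinery associated gene, was at 132, 138 and 80.9 FPKM. Rpl30, a protein of the large ribosomal subunit, was at 22.2, 22.2 and 11.5 FPKM, and like other ribosomal protein genes it has processed copies in the genome, so its value is uncertain.

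The remaining named genes on that side had the same order of libraries, with the Ift88 shRNA library lowest. Bex1 was at 12.1, 12.8 and 7.53 FPKM in static, sheared control and sheared Ift88 shRNA cells. Cpped1, a phosphatase gene, was at 15.9, 17.2 and 10.6, and Cdc5l, a subunit of the spliceosome, at 24.0, 22.8 and 14.8. Gadd45b, a stress-response gene, was at 22.8, 22.1 and 14.5 FPKM (ratio 0.654, 0.586 to 0.728). Clec4b1, a C-type lectin receptor, was at 2.60, 3.21 and 1.83 FPKM and Mamdc2 at 1.476, 1.55 and 0.693. Gm12191, at 641, 739 and 491 FPKM, is a predicted pseudogene, and Rsc1a1, at 7.19, 4.80 and 2.25, overlaps Ddi2, so both are uncertain.

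**Figure D2:**
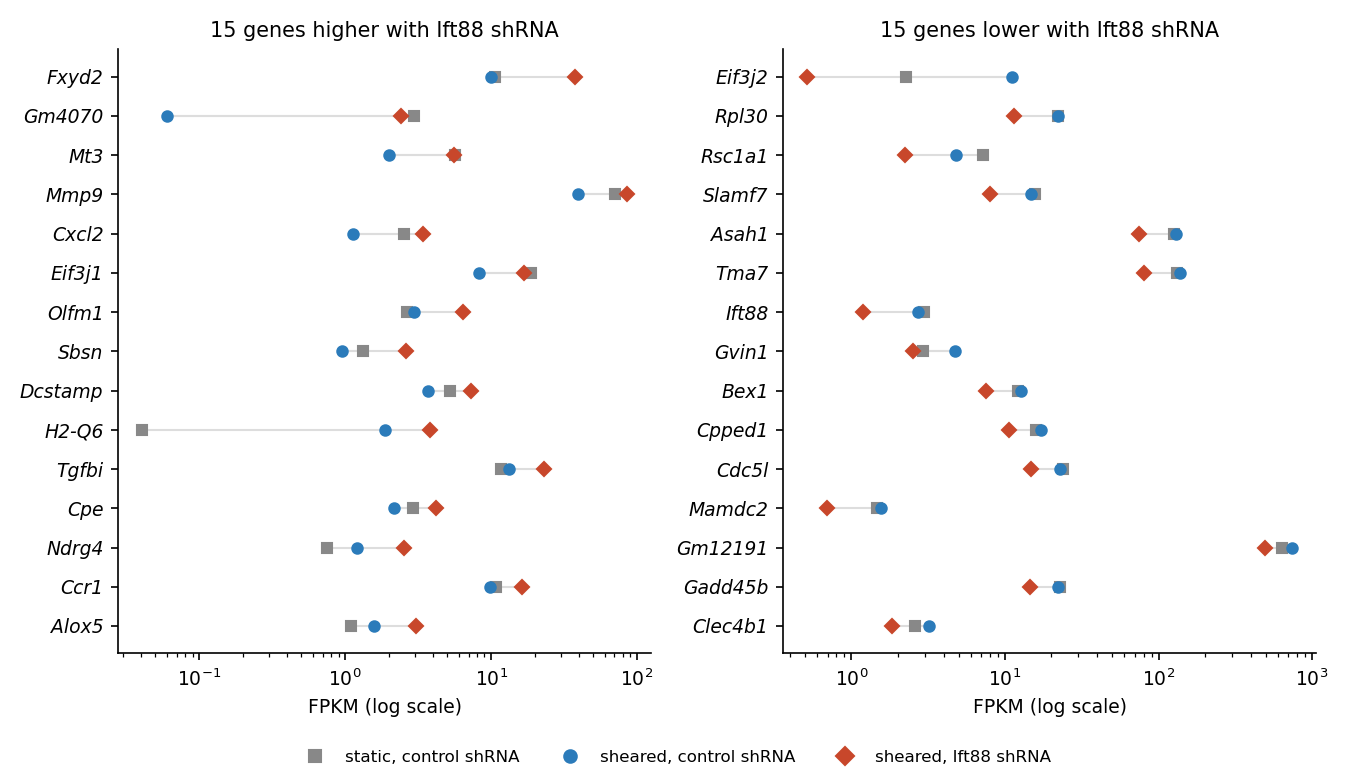
FPKM on a log axis for the 15 genes with the highest and the 15 with the lowest log2 ratio among transcripts over 500 bases, 1 point per library. On the left, the static library (grey squares) lies near the sheared control (blue circles) for Fxyd2, Tgfbi, Olfm1 and Ccr1, and nearer to the Ift88 shRNA library (red diamonds) for Mt3 and Mmp9. On the right, the static and sheared control libraries lie close together for Slamf7, Asah1, Tma7, Bex1 and Ift88.

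Most measured osteoclast markers were higher with Ift88 shRNA. Of the 10 osteoclast markers 7 were measured; 6 were higher and 1 lower, 4 were at least 1.2-fold higher, and the median log2 ratio was 0.52. Beside Mmp9 the leading markers were Dcstamp, Acp5 and Ctsk. Dcstamp (chromosome 15, 39745930 to 39760938), a membrane protein needed for the fusion of precursors, was at 5.21 FPKM in static cells, 3.67 in the sheared control and 7.27 with Ift88 shRNA, a ratio of 1.98 (1.63 to 2.42). Acp5, the tartrate-resistant acid phosphatase that defines these cells, was at 97.7, 52.9 and 83.0 FPKM. Ctsk, the collagen-degrading cathepsin K, was at 29.4, 12.6 and 18.5 FPKM. For Acp5 and Ctsk the Ift88 shRNA library lay between the static and the sheared control library, and for Dcstamp above both. The markers that differed least were Nfatc1, the master transcription factor of osteoclasts, at 16.2, 15.3 and 16.9 FPKM, Itgb3, the integrin beta 3 subunit, at 5.36, 7.08 and 8.12, and Atp6v0d2, a proton pump subunit that also serves fusion, at 211, 199 and 182. Nfatc1 and Itgb3 are not picked by the naming rule and are given to complete the list. In bulk RNA, more cells of a type and more RNA per cell cannot be told apart.

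Upstream of these markers, the receptors and kinases of the RANK and CSF1 pathways were higher in 22 of 29 measured members (median 0.083). In this list 3 were at least 1.2-fold higher and none was lower by as much. Among all genes 53.6% were higher, 3.25% by at least 1.2-fold. Src, the tyrosine kinase needed for the ruffled border, was at 20.3 FPKM in static cells, 19.1 in the sheared control and 26.8 with Ift88 shRNA (ratio 1.40, 1.33 to 1.477). Tnfrsf11a, which encodes RANK itself, was at 8.64, 8.40 and 10.7 FPKM, and Traf3, an adaptor that restrains non-canonical NF-kappaB signalling, at 7.39, 6.89 and 8.72. In these 3 genes the static and sheared control libraries were close and the Ift88 shRNA library was higher. Osteoclast transcription factors were higher in 19 of 23 members (median 0.066, 4 at least 1.2-fold higher, none lower). Fos, the AP-1 subunit without which osteoclasts do not form, was at 8.66, 8.09 and 13.1 FPKM (ratio 1.62, 1.45 to 1.803). Jdp2, a binding partner of Jun, was at 9.79, 7.14 and 11.1 FPKM, Fosl2 at 5.04, 4.19 and 5.52, and Nfkb2, the non-canonical NF-kappaB precursor, at 38.0, 33.5 and 41.5. Feedback inhibitors were among the genes that were higher as well. In the list of repressors of osteoclast formation 12 of 21 were higher and 9 lower (median 0.024), with 4 at least 1.2-fold higher and 1 lower. Nfkbie, an inhibitor of NF-kappaB, was at 14.1, 12.7 and 19.1 FPKM, and the cytokine signalling suppressors Socs1 and Socs3 were at 1.86, 1.72 and 2.76 and at 1.02, 1.13 and 1.79. Optn, the gene for optineurin, went the other way, at 21.1, 21.9 and 16.9 FPKM.

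The resorption machinery was divided. Of 24 measured members 14 were higher and 10 lower (median 0.038), near the share of all genes, with 5 at least 1.2-fold higher and 2 lower. Snx10, a sorting nexin required for acid secretion, was at 31.8 FPKM in static cells, 32.0 in the sheared control and 21.8 with Ift88 shRNA, a ratio of 0.682 (0.642 to 0.725), so it was lower while Mmp9, Acp5 and Ctsk were higher. Ctsl, the lysosomal cathepsin L, was at 3310, 3313 and 2406 FPKM; it was selected with its values in view. The 19 subunits of the proton pump differed little, 10 higher and 9 lower with none past 1.2-fold; Atp6v0b was at 368, 391 and 430 FPKM. Fusion genes were higher in 12 of 20 members (median 0.071), a share near the 53.6% of all genes, with 4 at least 1.2-fold higher. Besides Dcstamp these were Dock5, a Rac activator of the sealing zone, at 5.32, 4.73 and 6.78 FPKM, Itgav, the integrin alpha V subunit, at 10.3, 8.37 and 11.5, and Sh3pxd2a, a podosome scaffold, at 3.12, 2.80 and 3.64. Integrin subunits were higher in 10 of 13 members with a median of 0.17. The podosome and actin list was nearer the middle of all genes, with 24 of 38 higher and a median of 0.037.

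**Figure D3:**
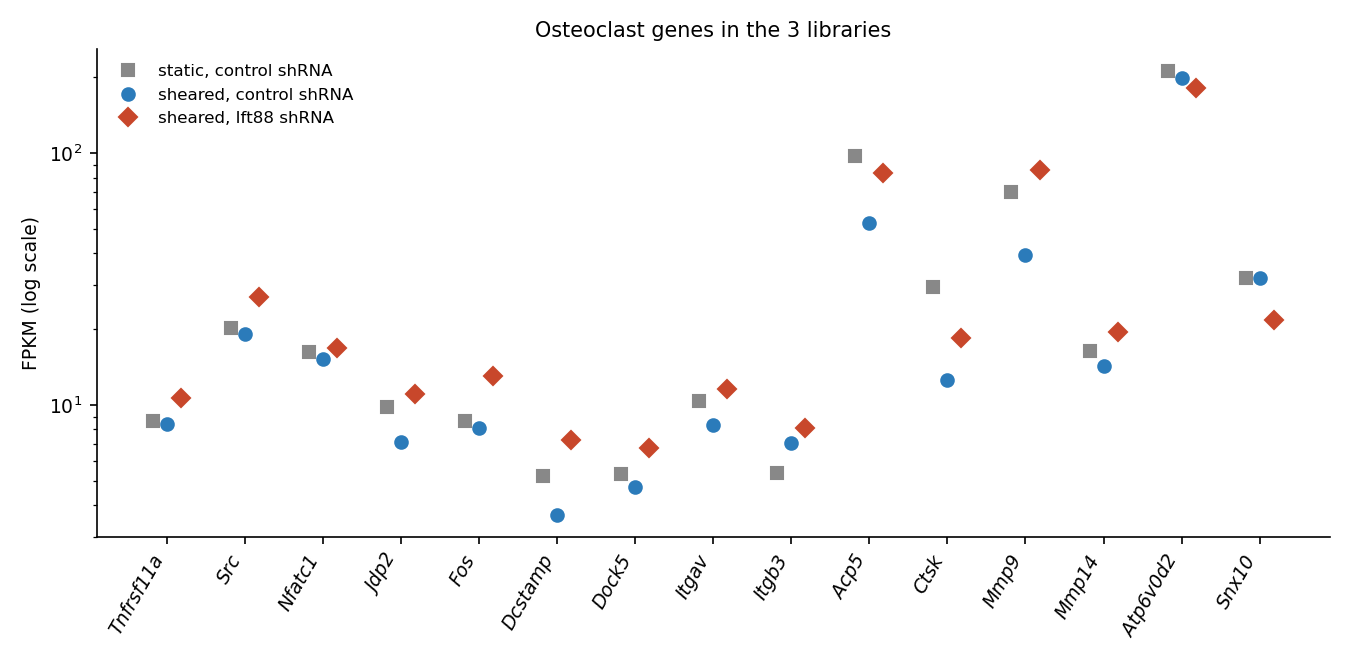
FPKM on a log axis for 15 osteoclast genes in the static control (grey squares), sheared control (blue circles) and sheared Ift88 shRNA library (red diamonds), 1 library each. The sheared control is the lowest of the 3 for Acp5, Ctsk, Mmp9 and Dcstamp, Src and Fos are separated mainly by the Ift88 shRNA library, and Snx10 is lower in that library.

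Most measured matrix genes and proteases were higher, as were the 4 stromal markers that passed the level filter. Matrix proteases and inhibitors were higher in 14 of 18 measured members, 6 of them by at least 1.2-fold, with a median of 0.099. Timp1, an inhibitor of matrix metalloproteinases, was at 4.20 FPKM in static cells, 4.74 in the sheared control and 7.07 with Ift88 shRNA, and Mmp14, a membrane-anchored collagenase, was at 16.3, 14.3 and 19.6. Of 25 collagens and matrix glycoproteins 12 were measured, 9 higher and 3 lower, with 7 at least 1.2-fold higher and a median of 0.27. The exception with the largest difference was Thbs1, the gene for thrombospondin 1, at 9.68, 9.72 and 6.68 FPKM. Ecm1 was at 36.9, 33.9 and 44.0 FPKM. Stromal and osteoblast markers were higher in 4 of 4 measured members of 10 listed. Their median of 0.31 ranged from 0.052 to 0.44 over the alternative settings. Summed levels over the list were 10.02, 7.22 and 9.67 FPKM. The other 6 markers, among them Sp7, Alpl and Pdgfra, were under 1 FPKM in every library. Sparc was at 2.47, 1.797 and 2.67 FPKM, Col1a1 at 2.80, 1.76 and 2.52, and Col1a2 at 2.69, 1.74 and 2.30. Runx2 was at 1.74, 1.63 and 1.70 FPKM, with an interval that included 1 (ratio 1.05, 0.747 to 1.45). The part of any stromal cells in the matrix values was not tested.

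Macrophage, dendritic cell, neutrophil and endothelial markers differed less than the osteoclast markers. Macrophage markers were higher in 7 of 11 members with a median of 0.063 and none past 1.2-fold; Itgam was at 85.2, 78.2 and 92.0 FPKM and Mertk, lower, at 28.9, 27.7 and 24.6. The 4 measured dendritic cell markers of 7, Itgax, Cd74, H2-Aa and H2-Ab1, were all higher (median 0.21), with summed levels of 151, 133 and 154 FPKM. Flt3 was at 0 in every library, and Ccr7 and Zbtb46 were under 1 FPKM in every library. Neutrophil markers were measured in 4 of 9 genes, 3 higher and 1 lower with 2 at least 1.2-fold higher (median 0.24), with sums of 68.5, 35.2 and 37.1 FPKM and Retnlg at 0. S100a9 was at 22.3, 6.66 and 8.38 FPKM (ratio 1.26, 0.925 to 1.72), and Ngp, a granule gene, at 4.36, 1.01 and 1.45 (ratio 1.43, 0.924 to 2.24). Both intervals include 1, and the static library was the highest for both genes. The 2 measured endothelial markers, Kdr and Vwf, were slightly higher, and the interval of Vwf included 1 (0.995 to 1.06). The other 4 of the 6 listed, among them Pecam1 and Cdh5, were under 1 FPKM in every library. Sums over the list were 29.6, 27.7 and 29.2 FPKM. What part any such cells had in other genes was not tested.

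Apart from Ift88, most genes of the cilium were near the level of the sheared control. Of 15 measured complex B genes 6 were higher and 9 lower, and 1, Ift88 itself, was past 1.2-fold; the median of -0.0023 was above 0 in 2 of 9 alternative settings. Ift27, a small GTPase subunit, was at 14.2 FPKM in static cells, 15.5 in the sheared control and 13.03 with Ift88 shRNA. Ift172, the largest peripheral subunit, was at 6.83, 6.44 and 6.17, and Ift80 at 1.59, 1.52 and 1.84. The retrograde complex A and its dynein motor were higher in 9 of 16 members (median 0.032). Dync2li1, a light intermediate chain of that motor, was the member past 1.2-fold, at 2.56, 1.86 and 3.12 FPKM with a ratio of 1.68 (1.26 to 2.27). The BBSome and ciliary kinesins were higher in 10 of 15 members (median 0.017, none past 1.2-fold), beside 53.6% of all genes. Centriole and transition zone genes were higher in 21 of 27 members (median 0.049), and Tmem216, a transition zone protein, was at 2.88, 3.27 and 4.55 FPKM.

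Hedgehog pathway genes were sparse in these cells. Of 19 listed genes 5 passed the level filter and Gli2 and Hhip were among those at 0 in all libraries. The Hedgehog receptor and target gene Ptch1 was at 1.40 FPKM in static cells, 1.52 in the sheared control and 1.23 with Ift88 shRNA, a ratio of 0.809 (0.698 to 0.939), which is past 1.2-fold as a ratio of FPKM but not on the log2 scale of (FPKM + 1), where none of the 5 was. Mechanosensitive channels and receptors were higher in 12 of 16 measured members of 25 (median 0.13). A single member passed 1.2-fold. Piezo1, a stretch-activated cation channel, was at 41.9, 42.8 and 48.0 FPKM (a gene picked with its values in view), while Piezo2 was at 0. In a list of targets of the mechanosensitive coactivators YAP and TAZ, which also holds the genes of both, 7 of 21 were measured. Of these 5 were higher and 2 lower (median 0.10). The coactivators' own genes were near 0, with Yap1 at 0.115, 0.0791 and 0.0998 FPKM and Wwtr1, which encodes TAZ, at 0.0572, 0.0372 and 0.0380. Activity of YAP and TAZ was not tested. Cyr61 was at 1.35, 0.967 and 1.60 FPKM, while Gadd45b, a member of the same list, was lower as given above. Among purinergic genes 6 of 13 were higher and 7 lower; Adora2b, an adenosine receptor, was the member past 1.2-fold, at 2.00, 1.41 and 2.38.

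Genes of cholesterol synthesis were higher as a group. Of 27 listed genes 26 were measured, 23 were higher and 3 lower, and 12 were at least 1.2-fold higher against a background of 3.25%, with a median of 0.21 that ranged from 0.20 to 0.24 over 9 alternative settings. Lss, lanosterol synthase, was at 7.49 FPKM in static cells, 9.09 in the sheared control and 12.5 with Ift88 shRNA, a ratio of 1.37 (1.28 to 1.47). Hmgcs1, the enzyme that makes HMG-CoA, was at 26.0, 28.0 and 36.6 FPKM, and Hsd17b7 at 2.04, 2.31 and 3.28. All 3 had the order static, sheared control, Ift88 shRNA from low to high. Mvd, Sqle and Idi1, other enzymes of the route, were at 32.7, 35.3 and 18.4 FPKM with Ift88 shRNA against 25.7, 28.2 and 14.4 in the sheared control. Their regulators differed less, with Srebf2, the transcription factor of the pathway, at 32.7, 38.2 and 42.7 FPKM and Insig1, its retention factor, at 39.4, 45.5 and 49.3. Mvd, Sqle, Idi1, Srebf2 and Insig1 are not among the genes the naming rule picks and were selected with their values in view.

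Promoter sequence is shown for 4 of these genes, because 12 of the list's members passed 1.2-fold and the known regulator of the pathway binds DNA beside the CCAAT-binding factor. The stretches are RefSeq sequence on GRCm38.p6, 5′ to 3′ on the gene's strand, and end before the gene begins in RefSeq and in GENCODE M21. Capitals mark the letters CCAAT on either strand (ATTGG when read from the other) and, in Hmgcs1, the letters TCACNCCA, a sterol response element core.
Hmgcs1 (chr13:119690201-119690350, plus strand): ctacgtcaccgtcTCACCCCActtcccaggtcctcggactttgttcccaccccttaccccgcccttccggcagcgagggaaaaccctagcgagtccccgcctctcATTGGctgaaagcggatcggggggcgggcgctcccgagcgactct
Mvd (chr8:122443423-122443502, minus strand): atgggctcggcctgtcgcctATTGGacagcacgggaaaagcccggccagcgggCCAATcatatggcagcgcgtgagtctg
Lss (chr10:76531525-76531564, plus strand): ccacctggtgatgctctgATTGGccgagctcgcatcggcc
Hsd17b7 (chr1:169969243-169969285, minus strand): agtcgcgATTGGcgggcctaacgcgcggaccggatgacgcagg
In Hmgcs1 the sterol letters start at -137 and the CCAAT letters at -45, counted from the gene's start in RefSeq. The CCAAT matches start at -60 and -27 in Mvd, at -22 in Lss and at -36 in Hsd17b7. In windows of 250 bases before the start that RefSeq's promoter table uses, which in some genes is a transcript start inside the gene, CCAAT on either strand was present in 17 of the 19 listed genes that have a window (89.5%) and in 37.5% of all 27025 genes with a window. The letters TCACNCCA were present in 3 of the 19 and in 4.20% of all genes. The 27025 genes were not limited to the 10358 compared here, and shares among those 10358 are not given. Whether the letters mark the genes that differed was not tested. A match is a string of letters and not a measured binding site.

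A list of lipid handling genes tied to LXR and PPARG, which also holds the genes of these receptors, lay mostly on the other side. Of 19 measured members 17 were lower and 2 higher with Ift88 shRNA, 7 of them at least 1.2-fold lower against a background of 2.29%, with a median of -0.17. Abcg1, a cholesterol exporter, was at 20.4 FPKM in static cells, 19.1 in the sheared control and 14.1 with Ift88 shRNA, a ratio of 0.737 (0.702 to 0.775). Apoe, the apolipoprotein secreted by macrophages, was at 3780, 3599 and 2788 FPKM, and Apoc2 at 8.498, 8.12 and 5.98. Fabp4, a fatty acid binding protein, was at 245, 226 and 172. In each of these the static and sheared control libraries lay close together and the Ift88 shRNA library was lower. Among the lower members were receptor genes, with Pparg at 21.4, 19.7 and 16.1 FPKM and Nr1h3, which encodes LXR alpha, at 21.6, 18.1 and 15.2. Both are part of the counts above and were selected with their values in view. CCAAT was present in 9 of 14 promoter windows of this list (64.3%), also above the share of all genes.

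Other lipid genes were more mixed. Fatty acid synthesis and desaturation genes were higher in 14 of 17 members with a median of 0.077 and 2 past 1.2-fold, Acsl3 at 5.76, 5.72 and 7.43 FPKM and Fads1, a desaturase, at 32.0, 33.0 and 40.9. Sphingolipid genes were split into 11 higher and 14 lower, so the lower value of Asah1 was not shared by its list. Psap, the precursor of the saposins that activate lysosomal lipid hydrolases, was at 9275, 9271 and 7858 FPKM, while Sphk1, sphingosine kinase, was higher at 0.932, 0.753 and 1.41. Enzymes of prostaglandin and leukotriene synthesis included 4 of 13 members at least 1.2-fold higher and none lower, although 5 members were below the control (median 0.026). Alox5, which starts leukotriene synthesis, was at 1.09, 1.56 and 3.05 FPKM (ratio 1.95, 1.59 to 2.39), and Ltc4s, leukotriene C4 synthase, at 3.62, 5.24 and 7.67. Both had the order static, sheared control, Ift88 shRNA. Ptgs1, cyclooxygenase, was at 5.49, 4.73 and 6.29, and Tbxas1, thromboxane synthase, at 53.7, 47.9 and 61.0.

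**Figure D4:**
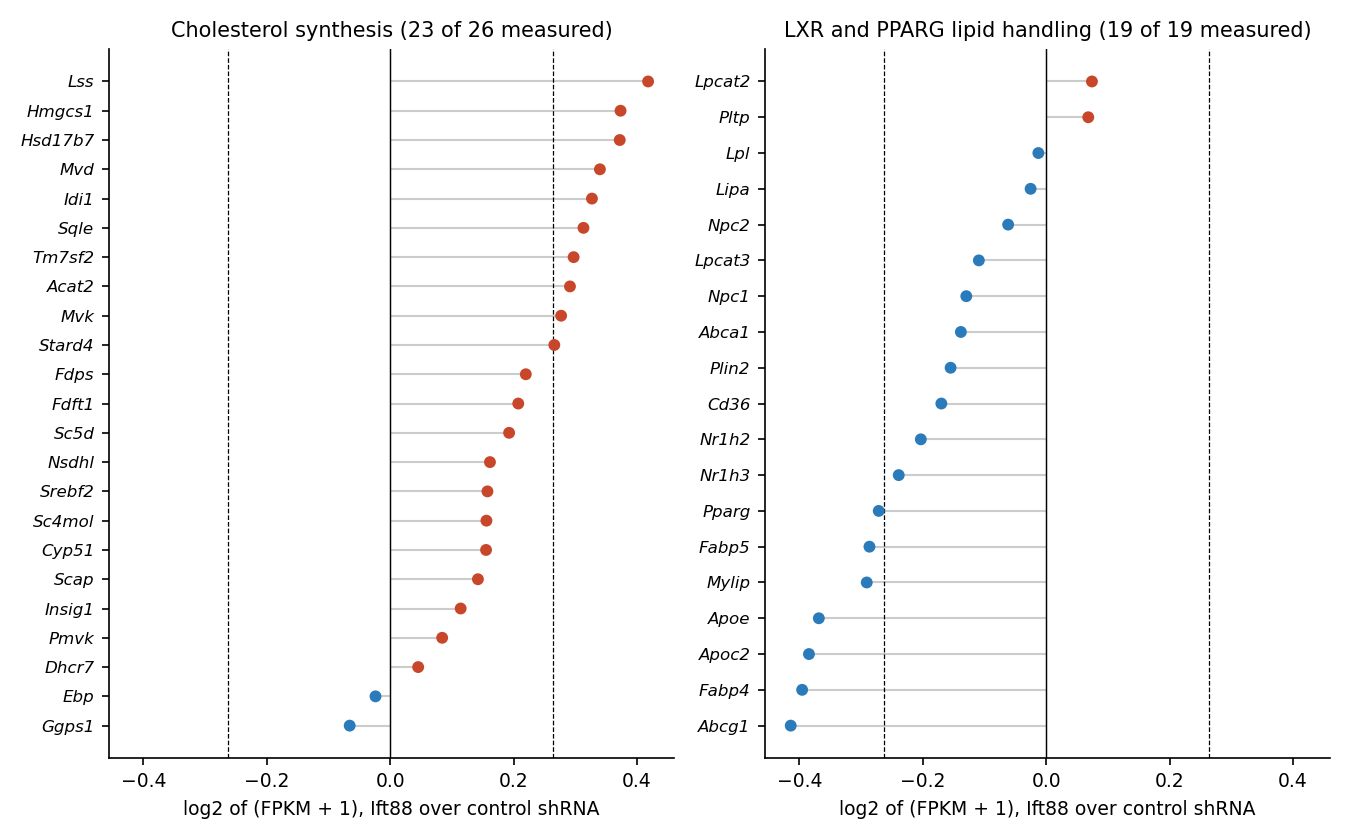
Log2 ratio of (FPKM + 1), sheared Ift88 shRNA over sheared control shRNA, for genes of cholesterol synthesis (left, 23 of the 26 measured are drawn) and of LXR and PPARG lipid handling (right, all 19 measured), 1 library a side. Dashed lines mark 1.2-fold. Of the genes drawn on the left 21 of 23 are above 0, and of those on the right 17 of 19 are below 0.

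Chemokines and cytokines differed gene by gene. Of 13 measured chemokine ligands 10 were higher and 3 lower (median 0.049), 4 at least 1.2-fold higher and 1 lower. Cxcl2 (chromosome 5, 90903899 to 90905938), a neutrophil attractant induced by NF-kappaB, was at 2.53 FPKM in static cells, 1.13 in the sheared control and 3.40 with Ift88 shRNA, a ratio of 3.01 (2.03 to 4.44). The monocyte attractant Ccl2 was at 33.0, 29.5 and 38.5 FPKM, whereas Ccl4, which attracts monocytes and T cells, was lower at 64.8, 57.1 and 44.6. Ccr1, a chemokine receptor of osteoclast precursors, was at 10.7, 9.90 and 16.3 FPKM (ratio 1.64, 1.51 to 1.79). The other 6 measured receptors gave no common direction with it, and the list held 3 higher and 4 lower. Csf1, the gene for MCSF, was at 11.4, 11.4 and 15.7 FPKM and Il1rn, the interleukin 1 receptor antagonist, at 121, 102 and 134. Igf1, a growth factor for osteoblasts, and Il18 were lower, at 77.6, 79.0 and 62.9 and at 4.45, 4.52 and 3.19. Factors by which osteoclasts act on osteoblasts were higher in 10 of 15 members (median 0.068), beside 53.6% of all genes. In this list C3, the central complement component, was at 81.2, 69.9 and 98.4 FPKM and Grem1, a BMP antagonist, at 0.926, 0.972 and 1.85.

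The stretch before Cxcl2 is shown because it is the ligand with the largest ratio and holds the letters of the factor known to induce it. Capitals mark letters of an NF-kappaB site, GGG followed by any 2 bases and TTTCC, searched on both strands.
Cxcl2 (chr5:90903789-90903870, plus strand, RefSeq on GRCm38.p6): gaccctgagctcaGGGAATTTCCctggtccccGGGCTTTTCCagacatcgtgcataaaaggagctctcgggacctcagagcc
The matches start at -97 and -78. These letters were present in 3 of 8 windows of chemokine ligands and in 1.65% of all windows of 250 bases.

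Receptors of the SLAM and Fc gamma families were lower in 7 of 11 measured members, 3 of them by at least 1.2-fold, with a median of -0.077. After Slamf7 the largest differences were in Slamf8, at 5.51 FPKM in static cells, 5.62 in the sheared control and 4.03 with Ift88 shRNA, and in Fcgr1, the high-affinity IgG receptor, at 5.86, 4.52 and 3.49. Cd5l, a secreted scavenger protein of macrophages, was at 6.26, 4.37 and 2.76 FPKM, and Cfb, complement factor B, at 3.06, 2.67 and 1.55, while C3 of the same cascade was higher. For Fcgr1, Cd5l and Cfb the sheared control lay between static cells and Ift88 shRNA. Interferon-stimulated genes were higher by small amounts in 31 of 37 members, with a median of 0.11 and none past 1.2-fold. Of all genes 53.6% were higher, and 64.2% with FPKM rescaled to equal library totals. Oas3, an antiviral enzyme that senses viral RNA, was at 28.6, 23.7 and 28.3 FPKM, and Isg15, a ubiquitin-like modifier, at 35.2, 30.0 and 34.7. In these the Ift88 shRNA library was about at the static level. A list of RNA interference genes that also holds Tlr3, Eif2ak2 and Adar, which sense or edit double-stranded RNA, was higher in 14 of 16 members. Its median was 0.071 and none was past 1.2-fold. The effector Ago2 was at 14.9, 14.5 and 16.6 FPKM. Tlr3, at 4.39, 3.85 and 4.71, had the largest ratio of this list and is also counted among the Toll-like receptors. Toll-like receptors and adaptors were higher in 16 of 19 members (median 0.083), with Irak2 at 18.98, 17.9 and 21.995.

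Metallothioneins, small proteins that bind zinc and copper, were higher with Ift88 shRNA, while most of the rest of the zinc list was lower. Mt3 (chromosome 8, 94152607 to 94154148) was at 5.63 FPKM in static cells, 1.99 in the sheared control and 5.57 with Ift88 shRNA, a ratio of 2.79 (1.76 to 4.72). Mt2 was at 87.4, 86.0 and 118 FPKM and Mt1 at 319, 342 and 406, with the 2 control libraries close to each other, unlike Mt3. Slc30a1, the zinc exporter, was lower at 20.5, 20.9 and 17.4, and the list as a whole held 6 higher and 10 lower genes. Iron genes were split into 7 higher and 8 lower. Ncoa4, the receptor for ferritin breakdown, was at 107, 99.1 and 79.5 FPKM, Tfrc, the transferrin receptor, at 67.8, 56.2 and 48.6, and Slc40a1, the iron exporter ferroportin, was higher at 38.9, 38.5 and 46.1.

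The stretch before Mt2 is shown because metal response elements are known to drive metallothioneins. Capitals mark TGCGCNC, a metal response element core, and TGANTCA, an AP-1 site, searched on both strands.
Mt2 (chr8:94172478-94172617, plus strand, RefSeq on GRCm38.p6): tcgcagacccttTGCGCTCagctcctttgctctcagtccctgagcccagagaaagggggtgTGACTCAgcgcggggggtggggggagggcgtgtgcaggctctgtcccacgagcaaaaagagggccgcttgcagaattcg
The metal response letters start at -128 and the AP-1 letters at -79. The shares of all windows of 250 bases that hold them are 13.99% and 7.82%.

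Genes of mitosis were higher and those of DNA replication were not. Of 35 mitosis and spindle genes 32 were higher and 3 lower, 3 of them at least 1.2-fold higher, with a median of 0.13. Cdc25b, a phosphatase that helps start mitosis, was at 10.7 FPKM in static cells, 10.46 in the sheared control and 13.4 with Ift88 shRNA, a ratio of 1.28 (1.18 to 1.39). The cyclins Ccnb1 and Ccna2 were at 10.2, 11.3 and 13.7 FPKM and at 9.17, 9.76 and 11.95, and Cenpf, a kinetochore protein, at 1.46, 1.37 and 1.85. In these 4 genes the Ift88 shRNA library was the highest of the 3. DNA replication and S phase genes were 15 higher and 23 lower, none past 1.2-fold, with a median of -0.017 that was above 0 with FPKM rescaled to equal totals (0.013). Plk1, a mitotic kinase selected with its values in view, was at 6.21, 7.55 and 9.09 FPKM. The stretch before Plk1 is shown because CCAAT is known as a common element of mitotic genes. Capitals mark CCAAT on either strand.
Plk1 (chr7:122159315-122159434, plus strand, RefSeq on GRCm38.p6): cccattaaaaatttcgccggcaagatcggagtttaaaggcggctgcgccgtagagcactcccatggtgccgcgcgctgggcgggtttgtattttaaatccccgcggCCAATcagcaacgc
The match starts at -14. CCAAT was present in 23 of 30 windows of mitosis genes (76.7%) and in 20 of 32 windows of S phase genes (62.5%), both above the 37.5% of all genes.

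Most ribosomal protein genes were lower, all of those but Rpl30 by less than 1.2-fold. In the small subunit 33 of 33 genes were lower, none past 1.2-fold, with a median of -0.12, and in the large subunit 44 of 47 were lower with a median of -0.10, among them Rpl30, the uncertain gene described above, which was past 1.5-fold. Rps3a1 was at 601 FPKM in static cells, 627 in the sheared control and 553 with Ift88 shRNA, and Rpl29 at 311, 360 and 306. For these 2 genes the sheared control was the highest of the 3 libraries. Ribosomal genes are short and abundant, and short transcripts as a whole had lower ratios. With ratios centred by transcript length and GC content the medians were -0.085 and -0.071, and with equal library totals -0.084 and -0.071. Proteasome subunits were lower in 30 of 33 members (median -0.080), with Psmd8 at 320, 368 and 316 FPKM. Mitochondrial ribosomal proteins were lower in 47 of 77 (median -0.041), and translation factors in 27 of 39 (median -0.026, above 0 with equal totals, at 0.0062). Ribosome biogenesis genes were near the middle, at 13 higher and 17 lower. In complex I of the respiratory chain 1 gene of 36 was past 1.2-fold, Ndufa10 at 51.9, 55.9 and 42.3 FPKM.

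**Figure D5:**
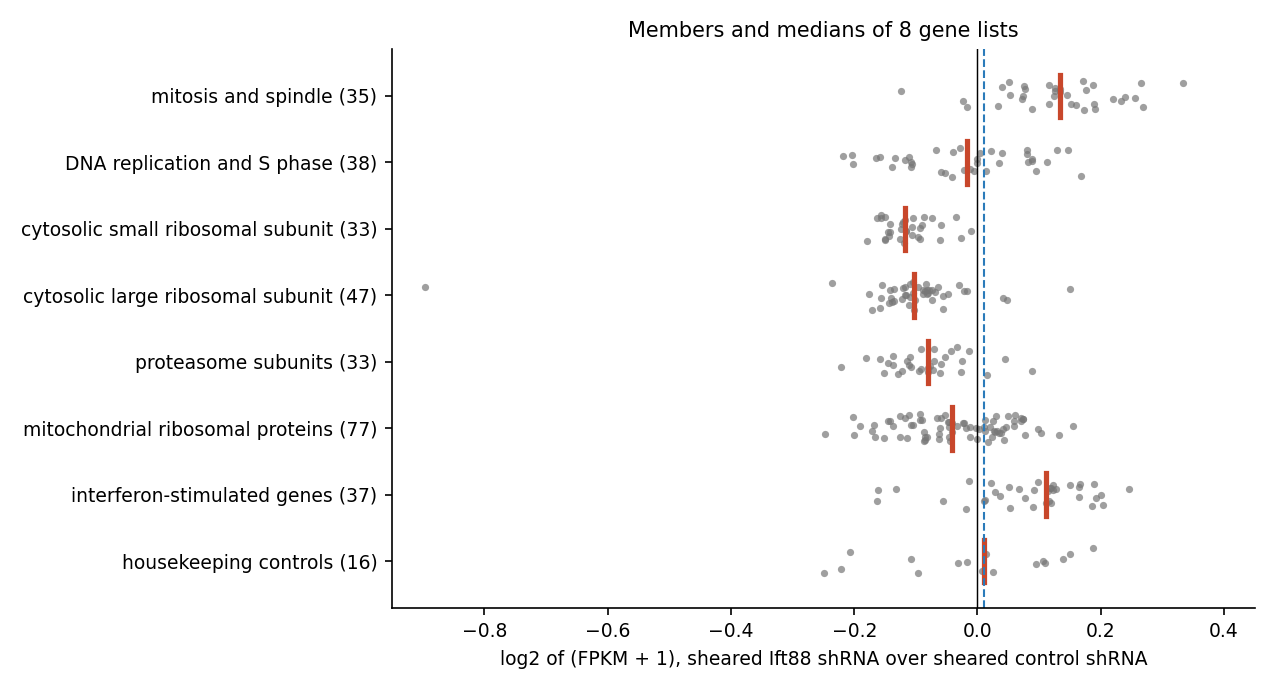
Log2 ratio of (FPKM + 1), sheared Ift88 shRNA over sheared control shRNA, for every measured member (grey points, number in brackets, spread vertically only to separate them) of 8 gene lists, with the list median in red and the median of all genes as a dashed blue line. Mitosis and interferon-stimulated genes lie mostly to the right of 0, ribosomal and proteasome genes to the left, and the housekeeping genes on both sides; the point furthest left is Rpl30.

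Most stress and early response lists had medians slightly above 0, and that of endoplasmic reticulum folding was -0.0044. Of all genes 53.6% were higher. Targets of p53 were 13 higher and 8 lower (median 0.033), with the kinase gene Plk3 at 2.36 FPKM in static cells, 2.06 in the sheared control and 3.25 with Ift88 shRNA, and Trp53inp1, an autophagy and p53 cofactor gene, at 16.6, 15.1 and 11.4. Folding genes of the endoplasmic reticulum were 9 higher and 14 lower, with Pdia4, a disulfide isomerase, at 76.1, 78.5 and 65.5 FPKM. Targets of ATF4 were higher in 21 of 29 members (median 0.051); Slc7a11, the cystine transporter, was at 3.89, 3.98 and 5.14. Early response genes of the EGR, KLF and NR4A families were higher in 12 of 17 members (median 0.080), with Egr1 at 1.12, 0.803 and 1.32 FPKM. Feedback phosphatases and Sprouty genes of the MAP kinase pathway were higher in 11 of 13 members (median 0.079), with Dusp6 at 6.55, 5.87 and 7.70. The 16 housekeeping genes were 9 higher and 7 lower with a median of 0.010, close to that of all genes, and Hprt was the furthest from 0 among them, at 77.8, 77.0 and 64.7 FPKM. Over 69 lists with at least 3 measured members, 48 medians were above 0 and 21 below. Medians of at least 0.1 were found in 13 lists and of at most -0.1 in 4, and the lists share members.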

How the data were processed

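RNA was measured in 3 libraries, 1 per group, of which the 2 sheared ones were compared. The values are FPKM as deposited by the authors in 1 table. The submitters' processing notes list Cufflinks 2.2.1, TopHat2 2.0.13, Trimmomatic 0.32, bcl2fastq 1.8.4 and the build mm10. Settings and strand handling: not given in the sources used here. Cufflinks divides fragments between near-identical copies by estimation. From the deposited FPKM, log2 of (FPKM + 1) over (FPKM + 1) was computed for genes whose mean FPKM was 1 or more (Python 3.11.15, pandas 2.3.3, scipy 1.17.1). The 131 genes without a symbol kept their gene ID. Gene coordinates come from RefSeq on GRCm38.p6, matched for 23983 gene IDs, and promoter sequence from RefSeq for 27025 genes, 18 of the 30 genes with the most extreme ratios among them.

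Depth was estimated from the step that 1 fragment adds to low FPKM values in genes with transcripts of at least 1000 bases. Of these values, 63.3% to 64.8% came out whole within 0.1 fragment, so no count model was run and fragment numbers are estimates. Intervals of 95% (Clopper-Pearson) use genes over 500 bases and cover counting error only. The calculations were run on simulated libraries of whole fragment counts with a single transcript length per gene. The deposited values depart from that setting, so the simulation does not show how well the intervals hold here.

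The genes named are Ift88, the 15 genes with the highest and the 15 with the lowest ratio among those over 500 bases, and up to 4 measured members of each of 72 lists with the largest absolute ratio; others are said to be chosen after their values were seen. Comparisons and lists were chosen with earlier results of these data known. Lists are described by counts and medians beside those of all genes, with no set test. Alternatives were another pseudocount (0.1, 0.5), other filters, other scalings, a length limit and centring by length and GC content. Values of some listed genes are not reported here, though the counts and medians of their lists include them.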

Additional observations from a re-analysis of the deposited data

How the results depend on the processing

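With a pseudocount of 0.1 the Ift88 log2 ratio was -1.11, and the counts were 73 higher and 41 lower at 1.5-fold and 16 higher and 12 lower at 2-fold. With a mean FPKM of at least 5 there were 15 higher at 1.5-fold and 4 higher at 2-fold. Among transcripts over 500 bases there were 13 lower at 1.5-fold, 5 higher and 1 lower at 2-fold. The median of chemokine and formyl peptide receptors was 0.056 over the 4 genes left by the filter of 5 FPKM, against -0.15. Each of these alternatives used a smaller constant or fewer genes. The receptor median rests on few genes, and its sign changed with the filter. Over 265 named genes and these alternatives, 2269 of 2303 values stayed close to the reported value, 34 moved and 0 reversed. The filters and the length limit cannot change the ratio of a single gene. Part of these values therefore matched by construction, and their number is not a measure of stability. Medians of 52 of 69 lists kept their sign over 9 alternatives, and 16 of the 17 with a size of at least 0.1 did so. The stromal median ranged from 0.052 to 0.44. No paired analysis was possible because each group had 1 library, and for the same reason no library could be left out. Low genes are limited by depth, since a gene at 1 FPKM rests on few fragments.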
